A study of Homo sapiens with 6 samples.

Results

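Interferon-stimulated genes are the genes whose transcription is switched on when a cell senses interferon. A list of 39 of them, given by symbol and not by any value measured here, was followed through RNA sequencing of the MDA-MB-231 line, which comes from a triple-negative breast cancer of a human patient and is labelled mesenchymal stem-like. All 39 were found among the 69292 genes of the table, and 33 passed the filter on low counts that left 21223 genes for testing. The 6 libraries fall into 3 groups of 2. A ridaforolimus-resistant derivative, MDA-MB-231/DRRIDA, was kept in 30 µM ridaforolimus. An everolimus-resistant derivative, MDA-MB-231/DREVE, was kept in 20 µM everolimus, and both were held in their drug for several months before RNA was taken. The parental line got no drug by the protocol, although its treatment label reads DMSO. The drugs are rapamycin analogs, which act with FKBP12 on the mTOR kinase, and the doses of the derivatives differ. There is a single derivative for each drug, so resistance, the presence of the drug and drift of that culture cannot be told apart. Nothing states that the libraries of a group came from separate cultures, and p-values then measure only the spread between these libraries.

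Type I interferons bind the IFNAR1 and IFNAR2 receptor chains and, through the kinases JAK1 and TYK2, activate STAT proteins, among them STAT2, which joins IRF9 in the transcription factor ISGF3. ISGF3 binds the interferon-stimulated response element (ISRE) of antiviral genes, while interferon gamma acts on a shorter element, GAS, as in the promoter of IRF1. In breast cancer cells many of these genes are also transcribed at a low level without added interferon.

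Of the 39 genes, 32 had promoter windows among the RefSeq sequences of build GRCh38.p14, each from 250 bases before to 50 bases after a transcript start. The core of the ISRE, searched on either strand as GAAANNGAAA, occurred in 23 of these 32 genes (71.9%), against 4.38% of 27305 genes with a window (3.57% of 35116 windows). The core of GAS, TTCNNNGAA, which is the same on either strand, occurred in 10 of the 32 (31.2%), against 9.38% of genes (7.66% of windows). A match is a description of the letters and not of a bound site. The stretches below come from the promoters of genes with larger estimates, and from that of IFIT1, whose groups overlapped, as a further example of paired cores. Each is written on the strand of its gene. Capitals mark the ISRE core on either strand, and in IRF1 they mark the GAS core.
ISG15, chr1:1013375-1013414, plus strand: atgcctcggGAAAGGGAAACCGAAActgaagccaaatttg
IFIT1, chr10:89392505-89392544, plus strand: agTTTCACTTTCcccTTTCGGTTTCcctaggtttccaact
OAS3, chr12:112938447-112938473, plus strand: cggagagccgggcggGAAAACGAAAcc
BST2, chr19:17405730-17405769, minus strand: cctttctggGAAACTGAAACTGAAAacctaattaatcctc
ISG20, chr15:88638932-88638971, plus strand: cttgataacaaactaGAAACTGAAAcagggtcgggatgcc
PARP9, chr3:122564317-122564356, minus strand: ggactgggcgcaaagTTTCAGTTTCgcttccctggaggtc
IRF1, chr5:132490874-132490912, minus strand: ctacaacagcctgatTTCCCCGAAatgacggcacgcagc
ISG15, IFIT1 and BST2 each had 2 cores within the stretch shown, overlapping in ISG15 and BST2. In ISG15 the core lay 97 bases before the transcript start, and in OAS3 the one shown lay 2 bases before it. The window of IRF1 held no ISRE core. The core of PARP9, at chr3:122564332-122564341, is also that of DTX3L, which is transcribed in the other direction from the same promoter.

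Libraries held between 13134567 and 15556246 counts. The 39 genes took 0.0748% and 0.111% of them in the ridaforolimus-resistant libraries, 0.138% and 0.103% in the everolimus-resistant libraries, and 0.0860% and 0.0811% in the parental libraries. On the first principal component of all tested genes, with 36.1% of the variance, the ridaforolimus-resistant libraries stood at 36.4 and 73.2 and the other libraries between -33.7 and -22.1. On the second, with 24.6%, everolimus-resistant library 2 stood at -59.8 and parental library 1 at 48.4. Genes of mesenchymal breast cancer cells were high, with summed levels in CPM (read counts relative to library size, scaled by TMM) of 2421 to 2613 in ridaforolimus-resistant, 1872 to 3088 in everolimus-resistant and 1804 to 1959 in parental libraries. SPARC, of that list, did not pass the filter. The leukocyte list of 6 genes summed to 0.915 to 2.26 CPM in ridaforolimus-resistant, 0.397 to 1.38 CPM in everolimus-resistant and 1.69 to 2.52 CPM in parental libraries, with CD3E at 0 in all 6. Of the plasmacytoid dendritic list, the cell type that makes most type I interferon in blood, CLEC4C and LILRA4 were at 0 in all 6 libraries, and nearly all of its 4.83 to 12.5 CPM was IL3RA. The fibroblast list summed to 5.14 to 15.6 CPM, nearly all COL1A1, with LUM at 0, and the endothelial list to 3.73 to 15.7 CPM. The luminal list, in which ESR1 stayed under 1 CPM and PGR at or under 0.146 CPM, summed to 97.9 to 126 CPM in ridaforolimus-resistant, 31.4 to 61.1 CPM in everolimus-resistant and 83.6 to 90.6 CPM in parental libraries, mostly KRT19. The part of these marker differences in the results was not tested.

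No interferon-stimulated gene of the list passed an adjusted p of 0.05 by edgeR's quasi-likelihood test in any of the 3 comparisons. By count, the estimates of the 2 derivatives leaned to different sides. Of the 33 tested genes, 17 were below 0 in the ridaforolimus-resistant and above 0 in the everolimus-resistant line. The share of all genes with this pattern was not computed. Some of the 17 had estimates close to 0, such as IFIT5 at -0.03 and 0.05. Another 10 were above 0 in both and 6 below 0 in both. In the ridaforolimus-resistant line 23 of the 33 (69.7%, against 48.7% of all genes tested) had an estimate below 0 relative to the parental line. Without ridaforolimus-resistant library 1 it was 20 of 34. Among genes averaging 1 CPM or more the lowest were ISG15, BST2 and OASL. In the everolimus-resistant line 27 of 33 (81.8%, against 52.3%) had an estimate above 0, and the highest were OAS3, SAMD9L and MX1. Set directly against each other, 31 of 33 (93.9%, against 51.7%) were lower in the ridaforolimus-resistant than in the everolimus-resistant line. That count was 25 of 34 without ridaforolimus-resistant library 1 and 26 of 33 without everolimus-resistant library 1. Both derivatives are set against the same 2 parental libraries, and the direct comparison uses the same 4 libraries of the derivatives, so these counts are not independent of each other. In bulk RNA a change in the share of cells that express a gene and a change in RNA per cell cannot be told apart.

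Over the 33 genes, the median log2 fold change of the ridaforolimus-resistant over the parental line was -0.26, beside 0.01 over all genes tested. By unadjusted p under 0.05, 4 genes were higher (12.1%, against 7.35% of all genes tested) and 6 were lower (18.2%, against 7.17%). The 4 higher genes became 0 without ridaforolimus-resistant library 2 or without either parental library, and the 6 lower became 3 without parental library 1. The adjusted threshold was passed by 0.32% of all genes, and the smallest adjusted p in the list was 0.0543, of ISG15. Without overlap between the libraries of the groups, 7 genes were higher (21.2%, against 25.1% of all genes) and 11 were lower (33.3%, against 24.3%), so that the share of higher genes lay below the background and that of lower genes above it. DESeq2 passed 3 of the genes, ISG15, IFIT2 and OASL, all lower, beside 574 of all 21223 genes tested. With limma-voom 0 of the list passed, beside 72 of all genes. The median depended on which ridaforolimus-resistant library was kept: it was -0.52 without library 2 and -0.062 without library 1.

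Relative to the parental line, the everolimus-resistant line had a median log2 fold change of 0.31 over the 33 genes, beside 0.02 over all genes tested. By unadjusted p under 0.05, 9 genes were higher (27.3%, against 4.26% of all genes) and 1, ISG20, was lower (3.03%, against 4.53%). The 9 higher genes became 4 without parental library 1 and 2 without parental library 2, and the 1 lower gene became 2 without everolimus-resistant library 2. The adjusted threshold was passed by 0.00471% of all genes, which was 1 gene, and the smallest adjusted p in the list was 0.205, of OAS3. The groups did not overlap for 16 genes that were higher (48.5%, against 20.6% of all genes) and for 3 that were lower (9.09%, against 20.5%). DESeq2 passed 3 of the genes, OAS3 and SAMD9L as higher and ISG20 as lower, beside 150 of all 21223 genes tested. With limma-voom 0 of the list passed, beside 1 of all genes. Without everolimus-resistant library 1 the number of genes with an estimate above 0 was 21 of 33 and the median was 0.25.

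Between the derivatives, ridaforolimus-resistant over everolimus-resistant, the median log2 fold change was -0.43, beside -0.02 over all genes tested. By unadjusted p under 0.05, 1 gene, ISG20, was higher (3.03%, against 7.58% of all genes) and 11 were lower (33.3%, against 6.56%). The 1 higher gene became 0 without library 2 of either derivative, and the lower genes numbered 9 to 13 with single libraries left out. The adjusted threshold was passed by 0.744% of all genes, and the smallest adjusted p in the list was 0.0711, of OAS3. Groups without overlap were seen for 2 genes that were higher (6.06%, against 20.9%) and 18 that were lower (54.5%, against 20.4%). DESeq2 passed 6 of the genes, ISG15, IFIT2, OAS3, OASL, MX1 and IRF1, all lower in the ridaforolimus-resistant line, beside 657 of all 21223 genes tested. With limma-voom 0 of the list passed, beside 113 of all genes.

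**Figure D1:**
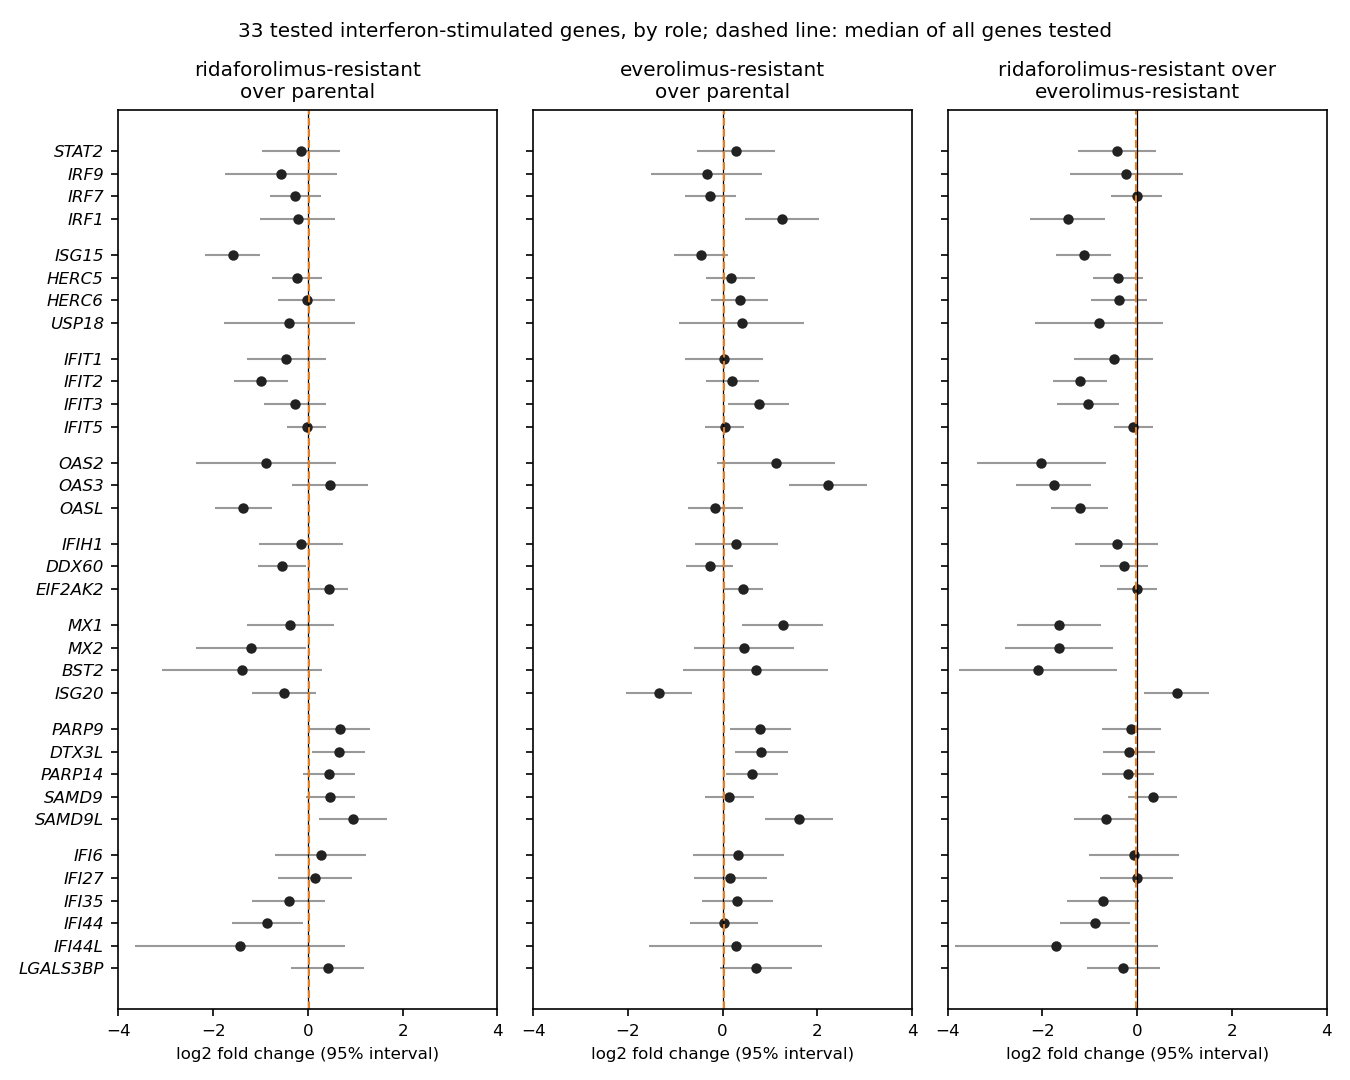
Log2 fold change (points) with its 95% interval (lines) for the 33 tested interferon-stimulated genes, grouped by role, in the 3 comparisons; the dashed line is the median of all genes tested. Most points lie left of 0 for ridaforolimus-resistant over parental (23 of 33), right of 0 for everolimus-resistant over parental (27 of 33) and left of 0 between the derivatives (31 of 33).

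The 4 transcription factors on the list had estimates below 0 in the ridaforolimus-resistant line and on both sides of 0 in the everolimus-resistant line. STAT2, which gives ISGF3 its activating domain, stood at 61.8 and 103 CPM in ridaforolimus-resistant libraries, 150 and 71.5 CPM in everolimus-resistant libraries and 94.6 and 88.1 CPM in parental libraries. The highest library was everolimus-resistant, the lowest was ridaforolimus-resistant, and all groups overlapped. IRF9, the DNA-binding partner of STAT2 in ISGF3, was low, at 3.05 and 4.89 CPM, 6.23 and 3.11 CPM, and 8.33 and 3.45 CPM in ridaforolimus-resistant, everolimus-resistant and parental libraries, and its groups overlapped throughout. IRF9 overlaps another protein-coding gene on the same strand. How reads shared by such genes were counted is not given, so its low level is uncertain. IRF7, which carries the amplifying step of type I interferon induction, was at 18.0 and 20.8 CPM in ridaforolimus-resistant, 22.4 and 16.7 CPM in everolimus-resistant and 21.9 and 24.7 CPM in parental libraries, with a log2 fold change of -0.26 ± 0.23 (SE) in each derivative. Only its ridaforolimus-resistant libraries lay below the parental ones without overlap.

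IRF1, an early target of interferon gamma that itself drives many antiviral genes, separated from the other factors in the everolimus-resistant line. It measured 20.0 and 28.7 CPM in ridaforolimus-resistant libraries, 86.1 and 48.8 CPM in everolimus-resistant libraries and 34.8 and 21.8 CPM in parental libraries. Both everolimus-resistant libraries were above the other 4, whose values overlapped. The log2 fold change was 1.25 ± 0.34 for everolimus-resistant over parental (adjusted p = 0.43, edgeR), and between 0.79 and 1.62 with single libraries left out. For ridaforolimus-resistant over everolimus-resistant it was -1.47 ± 0.35 (adjusted p = 0.114, edgeR; 0.00634 by DESeq2). IRF1 overlaps an antisense transcript, IRF1-AS1, and the strand setting of the counting is not given, so that reads of the pair may be mixed.

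ISG15 encodes a ubiquitin-like protein that is joined to other proteins after interferon treatment, and HERC5 is its ligase. ISG15 (ENSG00000187608, chr1:1001138-1014540 in GENCODE 29 on GRCh38, a span that overlaps an antisense gene) was at 13.03 and 11.0 CPM in ridaforolimus-resistant libraries, 21.2 and 31.3 CPM in everolimus-resistant libraries and 33.5 and 38.9 CPM in parental libraries. The groups did not overlap, and each ridaforolimus-resistant library was below all others. Its level in the ridaforolimus-resistant line was 0.332 times that of the parental line (log2 fold change -1.59 ± 0.26), which missed the threshold by edgeR (adjusted p = 0.0543). The adjusted p was 0.0324 when only these 2 groups were fitted, 0.0185 and 0.0222 without everolimus-resistant library 1 or 2, and 6.21e-05 by DESeq2. ISG15 did not pass with limma-voom, with the replicate block, with the filter at 5 CPM, or without any 1 library of the 2 groups compared. In the everolimus-resistant line the log2 fold change was -0.46 ± 0.25 (adjusted p = 0.636, edgeR). The direct comparison of the derivatives gave -1.13 ± 0.25 (adjusted p = 0.1).

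The ligases and the protease on the list had smaller estimates than ISG15 in the ridaforolimus-resistant line. HERC5 measured 14.1 and 11.2 CPM in ridaforolimus-resistant, 17.0 and 16.7 CPM in everolimus-resistant and 14.4 and 15.5 CPM in parental libraries, with groups apart but log2 fold changes of only -0.24 ± 0.23 and 0.17 ± 0.23. HERC6, its relative, was at 9.28 to 14.1 CPM in the derivatives and at 8.94 and 10.0 CPM in the parental libraries. USP18, the protease that removes ISG15 and dampens receptor signalling, was at 2.13 and 0.584 CPM in ridaforolimus-resistant, 1.81 and 2.91 CPM in everolimus-resistant and 1.45 and 2.11 CPM in parental libraries, so that its libraries of a group differed by as much as the groups. In a list of 6 genes for ISG15 and its conjugation, all 6 had an estimate below 0 in the ridaforolimus-resistant line (median -0.31), against 48.7% of all genes tested. In the everolimus-resistant line 4 of 6 had one above 0 (median 0.22), against 52.3%. By edgeR 0 of 6 passed the threshold in either (1 lower, ISG15, and 1 higher, UBA7, at an unadjusted p under 0.05, against 7.17% and 4.26% of all genes). ISG15, HERC5 and USP18 are also among the 39 genes, so these counts are not independent of those above. UBA7, the activating enzyme for ISG15, was at 1.22 and 2.85 CPM in ridaforolimus-resistant, 10.6 and 5.22 CPM in everolimus-resistant and 2.83 and 1.62 CPM in parental libraries. Its log2 fold change was 1.83 ± 0.52 for everolimus-resistant over parental (adjusted p = 0.439, edgeR).

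**Figure D2:**
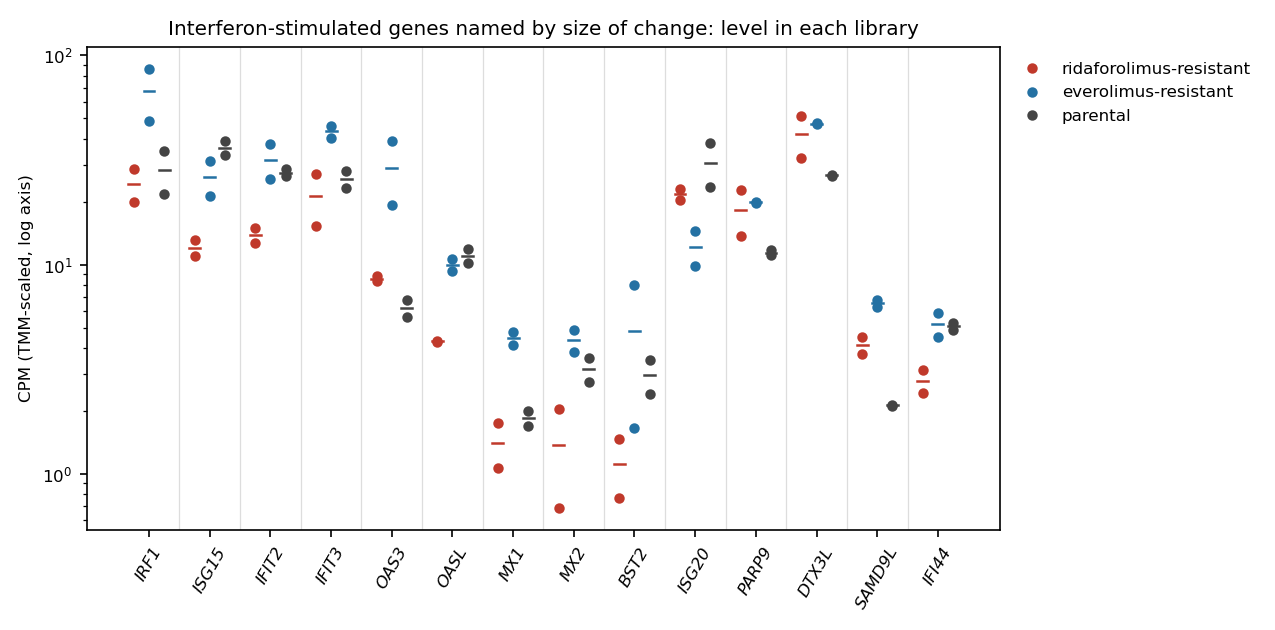
CPM (TMM-scaled, log axis) of the 14 interferon-stimulated genes named by the size of their change, with 1 point for each library and a bar at the mean of 2, for ridaforolimus-resistant, everolimus-resistant and parental cells. The ridaforolimus-resistant points of ISG15, IFIT2, OASL and IFI44 lie below all others, and the everolimus-resistant points of OAS3, MX1, IRF1 and SAMD9L lie above all others.

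The IFIT proteins bind foreign RNA by its end structure and block its translation. IFIT2 measured 12.7 and 14.9 CPM in ridaforolimus-resistant libraries, 37.8 and 25.6 CPM in everolimus-resistant libraries and 28.5 and 26.4 CPM in parental libraries. The ridaforolimus-resistant libraries did not overlap the other 4, at 0.504 times parental and 0.436 times everolimus-resistant. The log2 fold changes were -0.99 ± 0.25 (adjusted p = 0.152, edgeR; 0.0368 by DESeq2) and -1.20 ± 0.25 (adjusted p = 0.0792, edgeR; 0.00438 by DESeq2). IFIT3, which stabilises IFIT1, was at 15.3 and 27.0 CPM in ridaforolimus-resistant, 46.1 and 40.4 CPM in everolimus-resistant and 23.1 and 27.9 CPM in parental libraries. Here the everolimus-resistant libraries were the ones apart, at 1.69 times parental (log2 fold change 0.76 ± 0.28, adjusted p = 0.529, edgeR).

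IFIT1 and IFIT5 did not follow this order. IFIT1 was at 6.86 and 14.8 CPM in ridaforolimus-resistant, 12.7 and 17.6 CPM in everolimus-resistant and 14.7 and 15.0025 CPM in parental libraries, and only ridaforolimus-resistant library 1 stood out. IFIT5 was at 38.4 and 38.0 CPM, 39.4 and 41.2 CPM, and 37.6 and 40.4 CPM in ridaforolimus-resistant, everolimus-resistant and parental libraries. Its log2 fold changes had 95% intervals of -0.44 to 0.38 and -0.36 to 0.46 over parental. The 4 genes lie close together on chromosome 10, and IFIT1, IFIT2 and IFIT3 overlap LIPA on the other strand. IFIT2 also overlaps a further annotated gene on its own strand, so its counts are uncertain.

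The OAS enzymes make short oligoadenylates on sensing double-stranded RNA. OAS3 (ENSG00000111331, chr12:112938352-112973249, overlapping an antisense gene) measured 8.31 and 8.84 CPM in ridaforolimus-resistant libraries, 19.2 and 38.9 CPM in everolimus-resistant libraries and 6.80 and 5.63 CPM in parental libraries. All 3 groups were apart, and the everolimus-resistant libraries differed from each other more than those of either other group. OAS3 was 4.68 times parental in the everolimus-resistant line (log2 fold change 2.23 ± 0.35, adjusted p = 0.205, edgeR; 2.70e-05 by DESeq2) and 1.38 times in the ridaforolimus-resistant line (0.46 ± 0.35, adjusted p = 0.583). Its difference between the derivatives was -1.76 ± 0.35 (adjusted p = 0.0711). Without everolimus-resistant library 1 it passed in both comparisons, at 2.65 over parental (adjusted p = 0.0486, edgeR) and -2.19 between the derivatives (adjusted p = 0.0217). Without everolimus-resistant library 2 it passed in neither, at 1.62 over parental and -1.16 between the derivatives.

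OASL, a relative that lacks the enzyme activity and aids RIG-I, ran the other way in the ridaforolimus-resistant line. It was at 4.27 and 4.31 CPM in ridaforolimus-resistant, 10.6 and 9.32 CPM in everolimus-resistant and 10.2 and 11.9 CPM in parental libraries. The ridaforolimus-resistant pair lay well under the other 4, whose values overlapped. The log2 fold change was -1.36 ± 0.26 over parental (adjusted p = 0.0814, edgeR; 0.00374 by DESeq2) and -1.21 ± 0.26 over everolimus-resistant (adjusted p = 0.0912). OAS2 was near the detection limit, with 5 and 4 counts in ridaforolimus-resistant, 23 and 17 counts in everolimus-resistant and 11 and 6 counts in parental libraries. OAS1 had at most 6 counts in any library and was not tested.

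Among sensors of RNA, IFIH1, also called MDA5, was at 5.56 to 9.79 CPM in ridaforolimus-resistant, 7.40 to 13.4 CPM in everolimus-resistant and 7.56 to 9.44 CPM in parental libraries, with all groups overlapping. DDX60, a helicase linked to RIG-I signalling, measured 11.7 and 11.9 CPM, 13.5 and 15.3 CPM, and 17.4 and 17.2 CPM in ridaforolimus-resistant, everolimus-resistant and parental libraries. Its libraries of a group lay closer together than the groups, but the log2 fold changes were small, -0.55 ± 0.22 (unadjusted p = 0.0357, adjusted p = 0.308, edgeR) and -0.27 ± 0.22. EIF2AK2, the kinase PKR that stops translation on binding double-stranded RNA, was at 123 and 124 CPM in ridaforolimus-resistant, 114 and 134 CPM in everolimus-resistant and 88.6 and 94.2 CPM in parental libraries. Both derivatives were above the parental line without overlap, with the same log2 fold change of 0.44 ± 0.18 (adjusted p = 0.328 and 0.545, edgeR), and its 95% interval between the derivatives was -0.42 to 0.41.

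MX1 and MX2 are dynamin-like GTPases with antiviral activity. MX1 measured 1.07 and 1.75 CPM in ridaforolimus-resistant libraries, 4.13 and 4.76 CPM in everolimus-resistant libraries and 1.99 and 1.69 CPM in parental libraries. The everolimus-resistant libraries were apart from the other 4, at 2.41 times parental (log2 fold change 1.27 ± 0.37, adjusted p = 0.444, edgeR), and the derivatives differed by -1.65 ± 0.38 (adjusted p = 0.109). MX2 was at 0.686 and 2.05 CPM in ridaforolimus-resistant, 4.85 and 3.83 CPM in everolimus-resistant and 3.59 and 2.75 CPM in parental libraries. Its groups kept that order without overlap, but the ridaforolimus-resistant libraries rested on 9 and 28 counts and differed widely from each other. The log2 fold change was -1.20 ± 0.50 over parental (adjusted p = 0.33) and -1.66 ± 0.50 over everolimus-resistant (adjusted p = 0.19).

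BST2, or tetherin, holds budding virus at the cell surface. It measured 0.762 and 1.46 CPM in ridaforolimus-resistant libraries, 7.97 and 1.65 CPM in everolimus-resistant libraries and 3.51 and 2.39 CPM in parental libraries. The ridaforolimus-resistant libraries were lowest, while everolimus-resistant library 1 alone was above the parental ones. The log2 difference between the derivatives was -2.09 ± 0.72 (adjusted p = 0.251, edgeR), and -0.57 without everolimus-resistant library 1.

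ISG20, an exonuclease that degrades RNA, was the only gene of the list lower in the everolimus-resistant line at an unadjusted p under 0.05. It was at 20.4 and 22.9 CPM in ridaforolimus-resistant, 14.4 and 9.85 CPM in everolimus-resistant and 37.9 and 23.4 CPM in parental libraries. All 3 groups were apart, although parental library 2 was close to the ridaforolimus-resistant libraries. The log2 fold change of everolimus-resistant over parental was -1.34 ± 0.30 (unadjusted p = 0.00205, adjusted p = 0.332, edgeR; 0.0191 by DESeq2). RSAD2, or viperin, had 1 count in 1 library, CMPK2, its neighbour, had 0 in all 6, XAF1 had at most 5 counts and TRIM22 at most 5. A count of 0 allows up to 3 counts in a library, by counting error alone. EPSTI1 also failed the filter, with 1 and 3 counts in ridaforolimus-resistant, 20 and 10 in everolimus-resistant and 3 and 9 in parental libraries.

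PARP9, DTX3L, PARP14, SAMD9 and SAMD9L had estimates above 0, 5 of 5 in each derivative against the shared parental libraries, with a median log2 fold change of 0.65 in the ridaforolimus-resistant and 0.80 in the everolimus-resistant line. This grouping is by role and was made with these values known, and whether it differs from the other genes was not tested. SAMD9L, which restricts poxviruses, measured 3.73 and 4.53 CPM in ridaforolimus-resistant libraries, 6.30 and 6.74 CPM in everolimus-resistant libraries and 2.14 and 2.11 CPM in parental libraries. The groups were apart and their libraries close together. The log2 fold change was 0.96 ± 0.31 in the ridaforolimus-resistant line (adjusted p = 0.244, edgeR) and 1.61 ± 0.31 in the everolimus-resistant line (adjusted p = 0.243, edgeR; 0.0171 by DESeq2), with a difference between them of -0.66 ± 0.30 (adjusted p = 0.37). SAMD9, its neighbour on chromosome 7, was at 22.3 and 29.1 CPM, 19.1 and 21.8 CPM, and 18.0 and 19.0 CPM in ridaforolimus-resistant, everolimus-resistant and parental libraries.

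DTX3L, a ubiquitin ligase, works as a complex with PARP9, an ADP-ribosyltransferase family protein that takes part in interferon signalling. DTX3L was at 32.5 and 51.4 CPM in ridaforolimus-resistant, 46.7 and 47.6 CPM in everolimus-resistant and 26.9 and 26.6 CPM in parental libraries, and PARP9 was at 13.7 and 22.6 CPM, 20.0 and 19.6 CPM, and 11.7 and 11.1 CPM in the same groups. Both genes were above the parental line in all 4 derivative libraries, and ridaforolimus-resistant library 1 was the closest to it. The log2 fold changes in the everolimus-resistant line were 0.82 ± 0.24 (adjusted p = 0.447, edgeR) and 0.80 ± 0.28 (adjusted p = 0.507). Those in the ridaforolimus-resistant line were 0.65 ± 0.24 and 0.68 ± 0.28, and without ridaforolimus-resistant library 2 they were 0.29 and 0.28. The genes overlap at the shared promoter printed above, on opposite strands. PARP14, which also adds ADP-ribose, was at 68.4 and 105 CPM, 108 and 90.2 CPM, and 67.2 and 60.6 CPM, and in the ridaforolimus-resistant line its library 1 was only just above the parental libraries.

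The remaining IFI genes and LGALS3BP showed few separations. IFI44 measured 2.44 and 3.14 CPM in ridaforolimus-resistant libraries, 5.87 and 4.49 CPM in everolimus-resistant libraries and 5.27 and 4.86 CPM in parental libraries. The ridaforolimus-resistant libraries were below the other 4, at -0.86 ± 0.32 over parental (adjusted p = 0.29, edgeR). IFI44L, next to it on chromosome 1, had 13 counts at most. IFI6 and IFI27, small proteins of membranes, stayed between 1.45 and 2.97 CPM in all 6 libraries, with estimates of 0.16 to 0.33 in either derivative. IFI35, a partner of NMI, was at 8.31 and 7.52 CPM in ridaforolimus-resistant, 10.8 and 15.3 CPM in everolimus-resistant and 7.56 and 13.4 CPM in parental libraries.

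LGALS3BP, a secreted galectin-binding glycoprotein, gave 24.4% to 36.0% of all CPM of the 39 genes in a library. It was at 201 and 394 CPM in ridaforolimus-resistant, 435 and 293 CPM in everolimus-resistant and 243 and 203 CPM in parental libraries, so that ridaforolimus-resistant library 1 was at the parental level and library 2 near the everolimus-resistant ones. Summed without it, the list was at 548 and 701 CPM, 879 and 770 CPM, and 645 and 627 CPM in ridaforolimus-resistant, everolimus-resistant and parental libraries. Here the everolimus-resistant libraries were above the other 4, and the ridaforolimus-resistant libraries lay on either side of the parental ones.

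**Figure D3:**
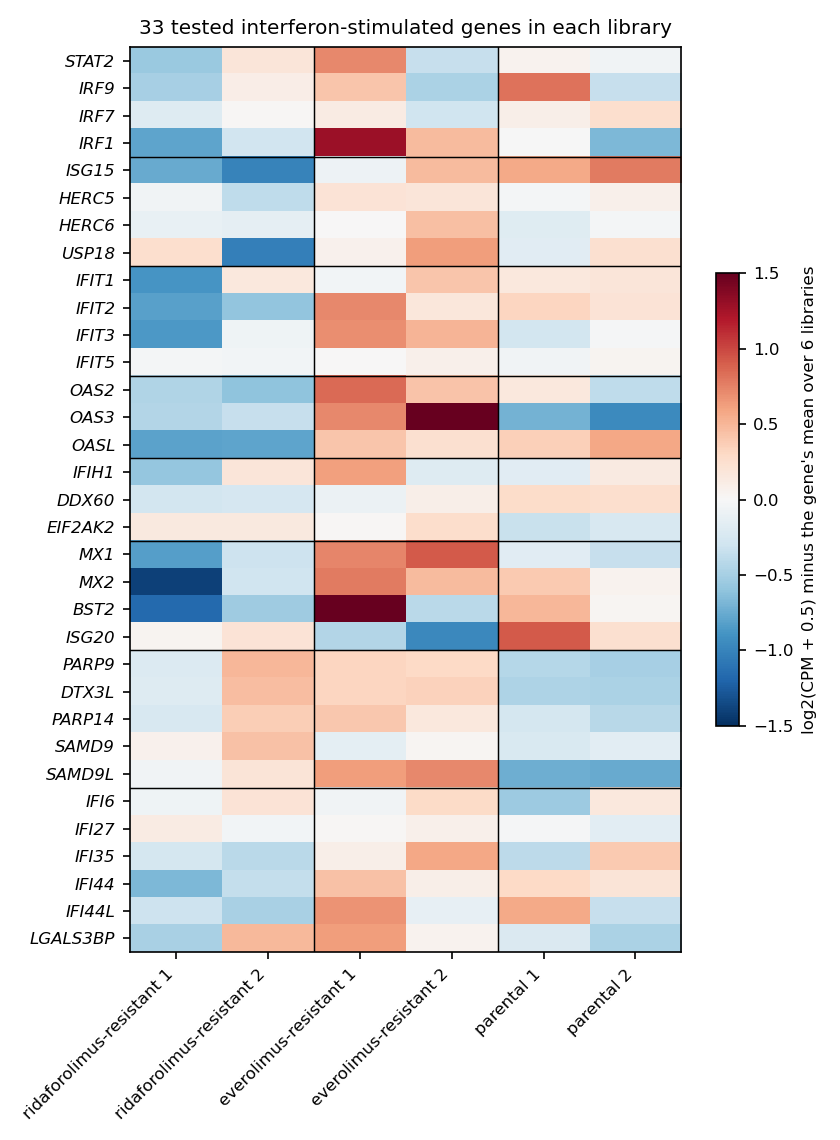
log2(CPM + 0.5) of each of the 33 tested genes minus its mean over the 6 libraries (colours limited to -1.5 and 1.5); rows are ordered by role and columns by group. The median of such differences over the genes, from CPM with a prior count of 2, was -0.44 and -0.06 in ridaforolimus-resistant, 0.41 and 0.26 in everolimus-resistant and -0.03 and -0.01 in parental libraries.

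Levels were also divided by exonic length in kb, counted over every annotated exon of a gene and not over a single transcript. That length was 941 bases for ISG15, 8616 for MX1 and 13047 for MX2, so the order of genes rests partly on the annotation. LGALS3BP was the highest gene of the list in every group, at 83.1, 102 and 62.2 CPM per kb in ridaforolimus-resistant, everolimus-resistant and parental cells. ISG15 came next in parental cells at 38.4 CPM per kb and in everolimus-resistant cells at 27.9, but at 12.7 it was below STAT2 (13.5) in ridaforolimus-resistant cells. Neighbours further down were often close, such as IFIT5 at 9.71 and IFIT3 at 9.67 CPM per kb in parental cells, which did not differ beyond their spread. At the low end, MX1 was at 0.164, 0.516 and 0.213 CPM per kb and MX2 at 0.105, 0.333 and 0.243 in ridaforolimus-resistant, everolimus-resistant and parental cells.

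**Figure D4:**
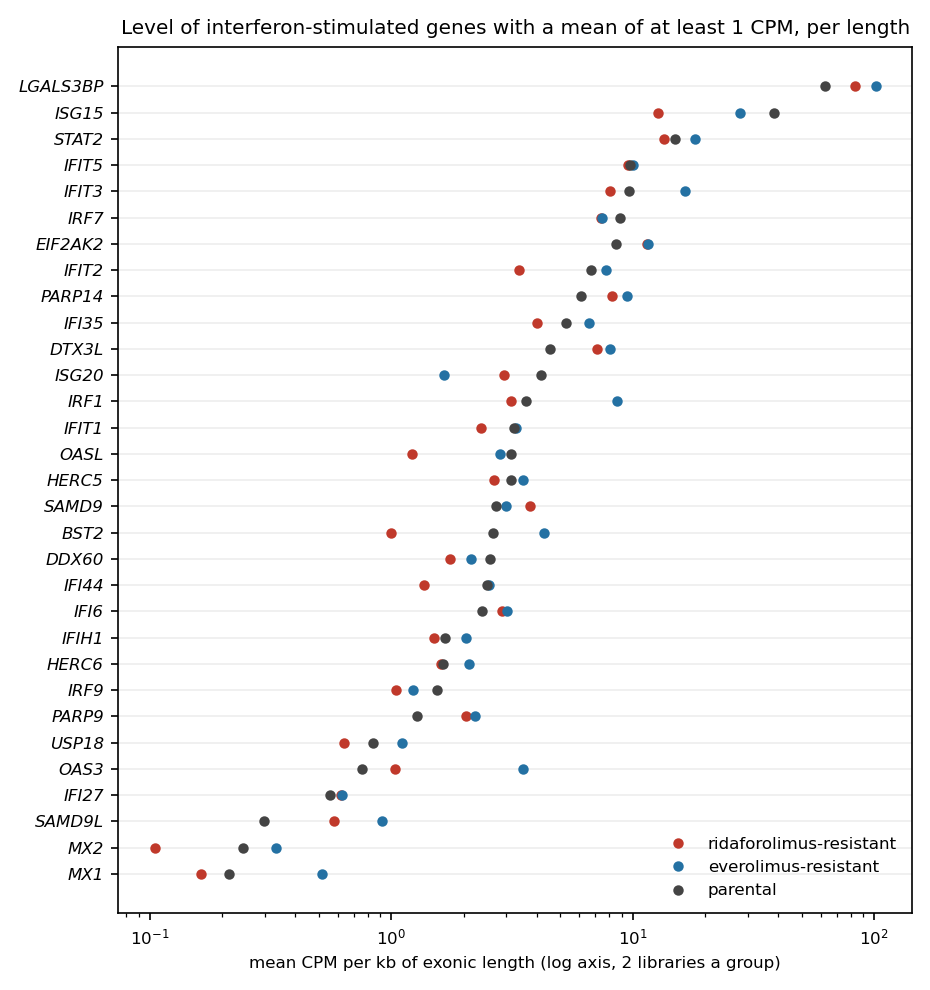
Mean CPM per kb of exonic length (log axis, 2 libraries a group) of the 31 interferon-stimulated genes with a mean of at least 1 CPM, ordered by their parental level. The length counts every annotated exon of a gene, so the order rests partly on the annotation. LGALS3BP is at the top in all groups, at 62.2 to 102 CPM per kb, and MX1 and MX2 are at the bottom, at 0.105 to 0.516 CPM per kb.

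Of the tested genes with a promoter window, 21 held the ISRE core and 6 did not, and the difference between them was not tested. Genes with the core had medians of -0.15 for ridaforolimus-resistant over parental, 0.29 for everolimus-resistant over parental and -0.29 between the derivatives, and those without it -0.18, 0.34 and -0.54.

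Upstream of these genes, the interferons themselves were barely detected. Of 21 interferon genes, 19 had 0 counts in all 6 libraries, among them IFNB1 and IFNG, and 0 passed the filter. IFNK, an epithelial type I interferon, had 4 and 21 counts in ridaforolimus-resistant, 2 and 2 in everolimus-resistant and 8 and 5 in parental libraries, and IFNL1 had at most 4.

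Receptors, kinases and STATs were measured in full, with 11 of 11 genes tested. In each derivative 9 of the 11 had an estimate below 0, with a median of -0.52 in the ridaforolimus-resistant and -0.18 in the everolimus-resistant line, and 0 passed the threshold in either by edgeR (4 and 1 at an unadjusted p under 0.05, all lower, against 7.17% and 4.53% of all genes). IFNAR1, a chain of the type I receptor, was at 35.1 and 31.6 CPM in ridaforolimus-resistant, 67.9 and 58.1 CPM in everolimus-resistant and 67.1 and 59.4 CPM in parental libraries. The ridaforolimus-resistant libraries lay below the other 4, at 0.528 times parental, with a log2 fold change of -0.92 ± 0.19 over parental (adjusted p = 0.0997, edgeR) and -0.92 ± 0.19 over everolimus-resistant (adjusted p = 0.0792). STAT3, shared with other cytokines, was at 123 and 153 CPM, 153 and 122 CPM, and 229 and 225 CPM in ridaforolimus-resistant, everolimus-resistant and parental libraries, below parental in both derivatives (-0.72 ± 0.21 and -0.73 ± 0.21, adjusted p = 0.192 and 0.439). IFNGR2 and TYK2 had log2 fold changes of -0.74 ± 0.30 and -0.65 ± 0.19 in the ridaforolimus-resistant line. IFNLR1, a chain of the type III receptor, was at 7.39 and 10.3 CPM in ridaforolimus-resistant, 4.202 and 5.62 CPM in everolimus-resistant and 8.40 and 7.40 CPM in parental libraries, lowest in both everolimus-resistant libraries (0.85 ± 0.31 between the derivatives, adjusted p = 0.272, edgeR). IL10RB, the other chain of that receptor, was at 1.07 to 3.04 CPM in all 6 libraries, with -0.73 ± 0.43 between the derivatives.

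Of the sensors and adaptors that lead to interferon, 12 of 15 were tested, 6 had an estimate below 0 in the ridaforolimus-resistant and 5 in the everolimus-resistant line, and 0 passed in either by edgeR (1 lower, and 3 higher, at an unadjusted p under 0.05, against 7.17% and 4.26% of all genes). TLR3, the endosomal receptor for double-stranded RNA, was at 0.991 and 0.804 CPM in ridaforolimus-resistant, 5.43 and 1.45 CPM in everolimus-resistant and 0.917 and 1.34 CPM in parental libraries. It was high in everolimus-resistant library 1 alone, with a log2 fold change of 1.59 ± 0.62 over parental. NLRC5, the activator of class I antigen presentation, was at 15.4 and 39.0 CPM, 73.0 and 39.3 CPM, and 22.5 and 23.7 CPM in the same order of groups. Only everolimus-resistant library 1 stood clearly above the rest, and library 2 was level with ridaforolimus-resistant library 2. IKBKE, a kinase that activates IRF3 and IRF7, had log2 fold changes of 0.58 ± 0.33 and 0.81 ± 0.33 in the ridaforolimus-resistant and everolimus-resistant lines. CGAS, the sensor of cytosolic DNA, was below the parental libraries in all 4 derivative libraries, with -0.43 ± 0.21 and -0.46 ± 0.21. The 8 tested inhibitors of the pathway had medians of -0.03 and 0.17, with 0 past the threshold in either (1 lower, in the ridaforolimus-resistant line, at an unadjusted p under 0.05, against 7.17% of all genes). Their largest estimates were 0.62 ± 0.32 for IRF2, a repressor related to IRF1, in the everolimus-resistant line and, between the derivatives, 0.60 ± 0.37 for the phosphatase PTPN6, -0.54 ± 0.21 for the phosphatase PTPN2 and -0.51 ± 0.18 for the RNA editing enzyme ADAR.

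A list of 44 other interferon-stimulated genes, of which 37 were tested, had medians of -0.01 in the ridaforolimus-resistant and 0.19 in the everolimus-resistant line, with 0 past the threshold over parental (4 higher and 3 lower, and 6 higher and 0 lower, at an unadjusted p under 0.05). Of all genes, 7.35% were higher and 7.17% lower in the ridaforolimus-resistant line, and 4.26% higher and 4.53% lower in the everolimus-resistant line, so that the 4 and 3 of 37 lay near the background. Between the derivatives its median was -0.09, and 21 of 37 (56.8%, against 51.7% of all genes) had an estimate below 0. At an unadjusted p under 0.05, 1 was higher and 5 were lower, against 7.58% and 6.56% of all genes. By edgeR 1 gene passed the adjusted threshold, which 0.744% of all genes passed. That gene was PARP10, a mono-ADP-ribosyltransferase, at 1.30 and 3.14 CPM in ridaforolimus-resistant libraries, 14.3 and 13.7 CPM in everolimus-resistant libraries and 5.81 and 6.55 CPM in parental libraries. The 3 groups were apart, and PARP10 was lower in the ridaforolimus-resistant than in the everolimus-resistant line by a log2 fold change of -2.65 ± 0.40 (adjusted p = 0.036, edgeR). NMI, the partner of IFI35, ran the same way, at 2.90 and 3.36 CPM, 9.49 and 8.20 CPM, and 4.28 and 4.65 CPM in ridaforolimus-resistant, everolimus-resistant and parental libraries (-1.495 ± 0.29 between the derivatives, adjusted p = 0.0697). IFITM3, which blocks viral entry, was at 76.5 and 173 CPM, 320 and 160 CPM, and 390 and 261 CPM, and near-identical IFITM copies may share reads. GBP2, a GTPase, varied most within groups, at 9.53 and 76.2 CPM in ridaforolimus-resistant, 46.4 and 7.40 CPM in everolimus-resistant and 17.0 and 11.6 CPM in parental libraries, and all its groups overlapped.

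Genes that respond to interferon gamma in particular gave 12 tested of 17. Their medians were -0.19 in the ridaforolimus-resistant and 0.73 in the everolimus-resistant line and -1.26 between the derivatives, with 0 past the threshold by edgeR in any of the 3 (0 higher and 4 lower, 5 higher and 0 lower, and 0 higher and 7 lower, at an unadjusted p under 0.05). Of all genes, 7.17% were lower in the first comparison, 4.26% higher in the second and 6.56% lower in the third. HLA-DRA, a class II antigen-presenting chain, was at 0.534 and 0.804 CPM in ridaforolimus-resistant, 3.12 and 1.65 CPM in everolimus-resistant and 4.58 and 3.45 CPM in parental libraries, with all 3 groups apart (-2.57 ± 0.48 for ridaforolimus-resistant over parental, adjusted p = 0.0764, edgeR). CD74, its chaperone, was at 2.74 and 2.26 CPM, 8.33 and 2.38 CPM, and 14.0 and 7.89 CPM in ridaforolimus-resistant, everolimus-resistant and parental libraries. CIITA, the master regulator of class II antigen presentation, was at 4.88 and 4.46 CPM in ridaforolimus-resistant, 16.7 and 9.25 CPM in everolimus-resistant and 15.1 and 13.5 CPM in parental libraries. The ridaforolimus-resistant libraries were below the other 4 (-1.62 ± 0.33 over parental, adjusted p = 0.0984, edgeR). GBP1, a GTPase against intracellular pathogens, was at 8.46 and 23.6 CPM in ridaforolimus-resistant, 42.3 and 44.8 CPM in everolimus-resistant and 13.4 and 17.9 CPM in parental libraries, and was highest in both everolimus-resistant libraries (1.47 ± 0.42 over parental, adjusted p = 0.439). PSMB8, a subunit of the immunoproteasome, was at 1.75 and 3.36 CPM, 12.0 and 8.66 CPM, and 4.66 and 5.85 CPM in ridaforolimus-resistant, everolimus-resistant and parental libraries. Its 3 groups were apart, with -2.004 ± 0.38 between the derivatives (adjusted p = 0.0666). PSMB9, another subunit, was at 0.534 and 2.19 CPM, 4.56 and 3.503 CPM, and 1.45 and 1.06 CPM in the same groups, highest in both everolimus-resistant libraries (1.68 ± 0.58 over parental, adjusted p = 0.507).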

How the data were processed

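RNA of 6 libraries was sequenced after preparation with Illumina's TruSeq Stranded mRNA kit, per the labels' protocols. The authors deposited raw counts of reads per Ensembl gene, 1 column a library, without normalization. Per the submitters' processing notes, which give no roles, the tools were HTSeq 0.13.5, STAR 2.7.9a, DESeq2 and Trim Galore 0.6.6, and the build was GRCh38. Whether counting used the strand, and with which annotation, is not given in the sources used here, so counts of overlapping, antisense and near-identical genes are uncertain.

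The list was matched by symbol through a table that named 62625 gene IDs, with positions and exonic lengths (every annotated exon of a gene) from GENCODE 29. The main test was edgeR 4.0.16 (R 4.3.3), two-sided: quasi-likelihood on the deposited counts, TMM, filterByExpr, group as the sole term over all 6 libraries, Benjamini-Hochberg adjustment over all 21223 genes tested, threshold 0.05. SE is the log2 fold change divided by the square root of F. The code was tested on simulated data. Alternatives were other scaling, no filter, at least 5 CPM in 2 libraries, DESeq2 1.42.0, limma-voom 3.58.1, fits of only 2 groups, a replicate block and single libraries left out; intervals cover 95%.

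The genes, lists and roles were chosen with earlier results of these data known. Full values are given for genes averaging 1 CPM or more that had 1 of the 8 largest absolute log2 fold changes over parental in either derivative or 1 of the 5 largest between derivatives, for the 4 transcription factors and, of each pathway list, for genes past the threshold and up to 4 of the largest changes in any comparison. Other genes, such as STAT3, TYK2, CIITA, GBP1, NMI and IFITM3, were chosen after their values were seen. Total counts limit the precision of genes with few reads, and counting floors cover counting error only.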

Additional observations from a re-analysis of the deposited data

Results flagged for a closer look

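Between the derivatives, 2 genes outside the list of 39 but within the accompanying lists differed by the direct test, which is also the test of whether their changes from the shared parental libraries differ. PARP10 had a log2 fold change of -2.65 ± 0.40 for ridaforolimus-resistant over everolimus-resistant (adjusted p = 0.036, edgeR), with -1.47 ± 0.40 over parental in the ridaforolimus-resistant and 1.18 ± 0.37 in the everolimus-resistant line. GATA3, a luminal marker, had -2.38 ± 0.38 (adjusted p = 0.0403, edgeR), at 0.915 and 0.9497 CPM in ridaforolimus-resistant, 3.91 and 5.88 CPM in everolimus-resistant and 3.90 and 4.37 CPM in parental libraries. For PARP10 the adjusted p was over 0.05 with at least 5 CPM in 2 libraries (0.0573), with only the 2 groups (0.12), with the replicate block (0.0642) and without any 1 library other than ridaforolimus-resistant library 2 (0.0538 to 0.0866). For GATA3 it was over 0.05 with limma-voom (0.0676), with only the 2 groups (0.13), with the replicate block (0.0775) and without any 1 library other than everolimus-resistant library 1 (0.0920 to 0.19).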

How the results depend on the processing

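The direction of the median over the list held in every alternative, for all 3 comparisons. Genes of the list past the threshold were 0 in each comparison by edgeR, but without a filter on low counts 3 passed for ridaforolimus-resistant over parental, 4 for everolimus-resistant over parental and 10 between the derivatives (with 1195, 493 and 1362 of all genes, against 68, 1 and 158), EPSTI1 among the 10, and by DESeq2 3, 3 and 6 (574, 150 and 657 of all genes). Fitting only the 2 groups gave 1 for ridaforolimus-resistant over parental. With single libraries left out, 0 to 1 passed in each comparison; the medians ran from -0.52 to -0.062, from 0.25 to 0.44 and from -0.80 to -0.46. Of all genes, 1 to 276, 0 to 3 and 19 to 123 then passed. Without either parental library 1 gene of all passed for ridaforolimus-resistant over parental, and without ridaforolimus-resistant library 2 it was 2. The labels give the replicate numbers no shared source, and they were not taken as pairs: differences between replicates 1 and 2 correlated across genes by -0.19 for the derivatives and -0.17 for ridaforolimus-resistant and parental, but by 0.33 for everolimus-resistant and parental. With the replicate block 0 genes of the list passed in each comparison, the medians were -0.26, 0.33 and -0.46, and 28, 0 and 49 of all genes passed. With the numbers crossed, chosen after seeing the data, 3 passed for ridaforolimus-resistant over parental and 3 between the derivatives (1762 and 427 of all genes). At least 5 CPM in 2 libraries left 25 genes of the list, with 0 past the threshold. In each comparison 22 of 33 genes kept the sign of their estimate in every alternative. Genes with few reads, such as OAS2 and IFI44L, are limited by depth.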
